A study of Mus musculus with 6 samples.

Results

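The response of Irak2-deficient macrophages to CpG B was read from 2 of the 6 arrays of the study, 1 of knockout cells exposed to CpG B and 1 of untreated knockout cells. A gene belonged to the comparison when it was detected at a p-value under 0.01 on at least 1 of these 2 arrays, which held for 6860 of the 16593 genes named on the platform. The lowest normalised intensity of a detected probe was 93.6 on the knockout CpG B array and 100.9 on the untreated knockout array. Macrophages had been grown for 5 days from the bone marrow of female 129/BL6 mice, either Irak2 KO or wild type (WT), in medium conditioned by L929 cells, a fibroblast line that secretes the macrophage growth factor M-CSF. Cells of each genotype were stimulated for 2 h with 1 µg/ml CpG B or 1 µg/ml R848, or left untreated, and each of these 6 groups is represented by 1 bead array, the Illumina mouseRef-8 v2. The labels do not say which stretch of Irak2 the knockout lacks or whether animals were pooled. As RNA came from whole cultures, fewer cells of a type and less RNA per cell cannot be told apart.

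CpG B is a B-class oligonucleotide with unmethylated CpG motifs, which TLR9 binds in endosomes of macrophages, B cells and dendritic cells. TLR9 recruits the adaptor MyD88, which assembles IRAK4, IRAK1 and IRAK2 into a complex that activates TRAF6 and TAK1, and these lead on to NF-kB and the MAP kinases. NF-kB and the MAP kinases then drive transcription of cytokines and chemokines, and also of inhibitors that shut the pathway down again. Comparing stimulated with untreated knockout cells asks which genes still respond to CpG B without intact IRAK2.

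Single-array differences are given on the log2 scale of background-corrected, quantile-normalised intensities and have no p-value. A second measure used the authors' processed signals. Their untreated columns are means of 2 arrays, so a second untreated array of each genotype could be recovered, and 8 arrays entered a limma fit whose only measured spread is that of both untreated pairs, at 2 residual degrees of freedom. Stimulated cells are thereby assumed to vary like untreated cells, and nothing states that both untreated arrays came from separate cultures, so this spread may be technical. Genes called at a Benjamini-Hochberg adjusted p under 0.05 in that fit are said to have risen or fallen. The gene lists were chosen with earlier results of these data known, and several hold genes with the largest differences. Their shares, set against those of all genes, are therefore descriptions and no test. Signals of single genes below are processed signals in intensity units, given for the knockout CpG B array, then for the deposited and the recovered untreated knockout arrays.

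The arrays were comparable in quality: 36.9% of 25697 probes were detected on the knockout CpG B array and 36% on the untreated knockout array. Both Irak2 probes remained above background in the knockout. The first read 555.6 intensity units in knockout cells with CpG B and 338.5 in untreated knockout cells, against 2117 in WT cells with CpG B and 341.6 in untreated WT cells. After normalisation this probe was 2.12-fold higher with CpG B in Irak2 KO and 5.13-fold higher in WT. The second probe gave 2.13-fold in Irak2 KO and 4.16-fold in WT. Whether these probes lie within the deleted part is not given, so they do not check the genotype. Of 9 macrophage markers 6 were on the table, and all 6 were detected in untreated knockout cells, among them Adgre1, Lyz2 and Cd14, while Mertk was not detected with CpG B. Markers of other cell types were also present. In the granulocyte list 10 of 11 genes were detected, with a summed normalised intensity of 10940 after CpG B and 13520 untreated, and none of them was called. No mast cell marker was detected, and of 10 T and NK cell markers only Il7r was. Neither Cd3e, Cd79a, Ms4a1 nor Col1a1 was detected on either knockout array, but other members of these and further lists were. Detected on both arrays were the B cell marker Blnk, the stromal marker Acta2 and the monocyte markers Ly6c1 and F13a1. So were H2-Ab1, H2-Aa, H2-Eb1 and Cd74 of the dendritic cell list, and Pf4 and Ppbp of the erythroid and megakaryocyte list. The part of such cells in the results was not tested. The B cell marker Cd79b was detected and fell by 0.64, a call lost without either untreated knockout array. The arrays labelled knockout CpG B and knockout R848 were about as alike as both untreated knockout arrays, by the SD and the 2-fold count given under the comparison of both agents. Whether these 2 samples were exchanged or treated alike was not tested, so every result for CpG B in Irak2 KO rests on the label of its array. The 8 detected reference genes, including Actb, Gapdh and Hprt, differed by -0.36 to 0.07 log2 units.

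CpG B changed a broad set of genes in Irak2 KO macrophages. At 2-fold or more, 549 of 6860 genes differed (8%), of which 318 (4.64%) were higher and 231 (3.37%) lower with CpG B. Of the 318 higher genes 107 were not detected untreated, so they entered the comparison through the CpG B array alone. Of the 231 lower genes 61 were not detected with CpG B and entered through the untreated array alone. The list shares below include such genes. The median difference over all tested genes was -0.04. The larger differences were mostly increases: 120 genes were at least 4-fold higher and 21 at least 4-fold lower, and at 16-fold the counts were 16 and 0. With median scaling in place of quantile normalisation the median of all genes was -0.15 and the split became 270 higher and 297 lower genes. In the 8-array fit 809 of 7149 genes were called (11.3%), of which 418 rose (5.85%) and 391 fell (5.47%), with a median standard error of 0.16 log2 units. The split of calls moved with the setting: it was 369 risen and 583 fallen over genes detected on both deposited untreated arrays, 555 and 664 with trend and robust moderation, and 245 and 73 with no detection filter. The fitted calls included 300 of the 318 genes that were 2-fold higher and 191 of the 231 that were 2-fold lower. The number of calls fell when any untreated array was left out, which also takes away 1 residual degree of freedom. Without either WT one 615 genes were called, although the knockout differences stay the same. Without the deposited knockout one 424 genes were called, 288 risen and 136 fallen, with 405 of them among the 809. Without the recovered knockout one 398 were called, 257 risen and 141 fallen, with 388 of them among the 809. How much of a lost call is due to the array and how much to the lost degree of freedom was not tested. For comparison, 21 of the 7149 genes (0.294%) differed 2-fold between both untreated knockout arrays, and 430 of the 549 genes differed 2-fold in the same direction from each of them. As the 549 were chosen by their difference from the deposited array, agreement with that array was mostly given in advance. The same CpG B array stands in both differences.

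**Figure D1:**
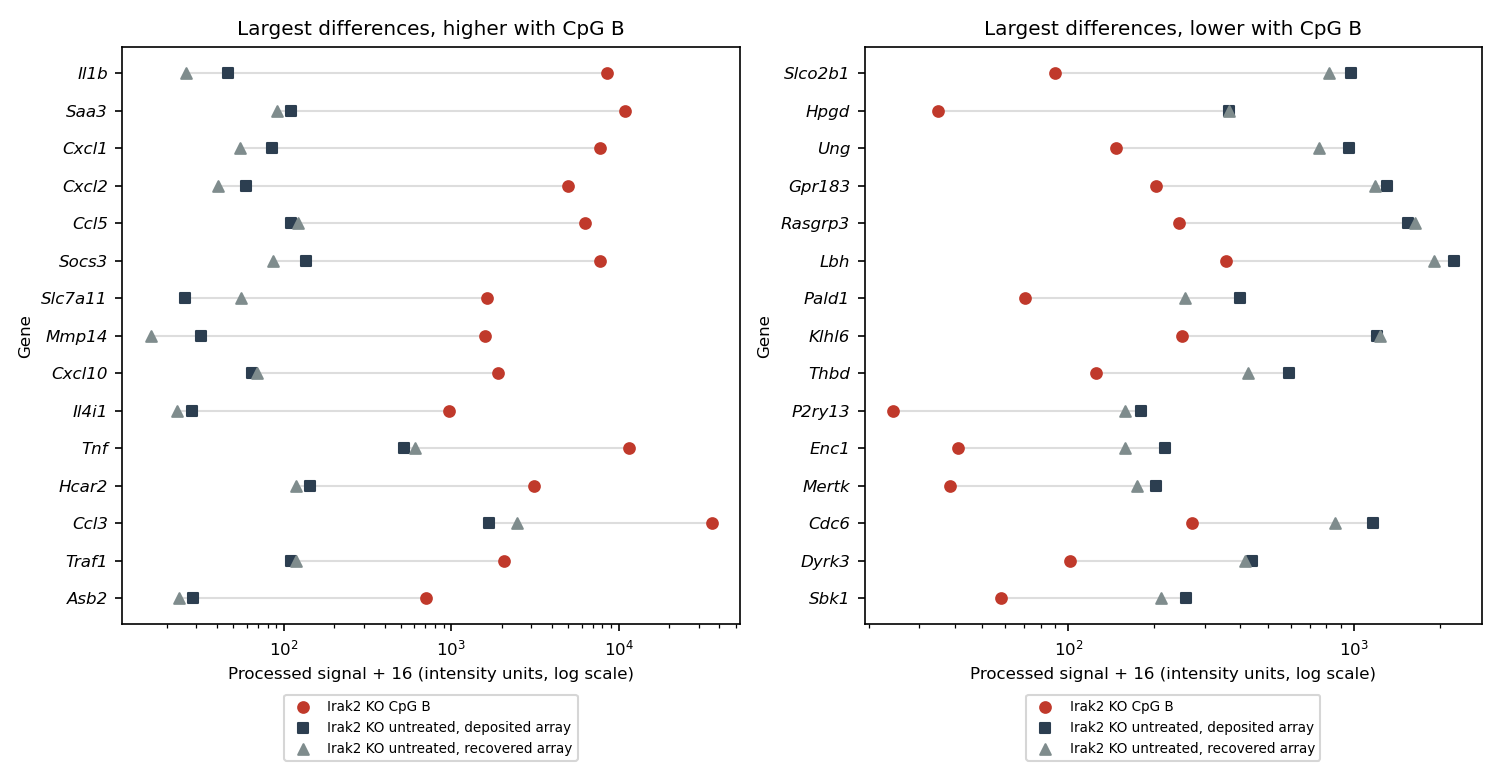
Processed signal plus 16 on a log axis for the 15 genes with the largest differences in each direction. Circles are the Irak2 KO CpG B array, squares the deposited and triangles the recovered untreated Irak2 KO array. For each of these genes the CpG B array lies outside the pair of untreated arrays, and the untreated pair lies much closer together than either does to the CpG B array.

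Cytokines, chemokines and acute-phase genes led the increases. Il1b, which encodes the precursor of interleukin-1 beta, read 8538 with CpG B, against 30.65 and 9.95 untreated. Its probe was not detected untreated, so the change is a bound of at least 87.5-fold (limma adjusted p = 0.000224). Saa3, an acute-phase apolipoprotein made by macrophages, read 10828 with CpG B, against 93.7 and 74.7 untreated, and rose by 6.76 ± 0.17 log2 units (SE, adjusted p = 9.96e-05). On the single arrays this was 104.7-fold. In both genes the untreated arrays were low together and far from the CpG B value.

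The regulatory sequence next to such genes is shown for the cytokine, chemokine or NF-kB list members with the largest differences that have an entry in the RefSeq promoter table of build GRCm38.p6. These are the 250 bases before the annotated start of Il1b (chr2:129371140-129371389, minus strand), Cxcl1 (chr5:90890995-90891244, plus strand), Cxcl2 (chr5:90903649-90903898, plus strand) and Cxcl10 (chr5:92348890-92349139, minus strand). They are written 5′ to 3′ on the gene's strand. Capitals mark matches, on either strand, to a kB-like pattern (GGG, any 5 bases, CC) and to the pattern of interferon-stimulated response elements (GAAA, any 2 bases, GAAA), and TATAAA within 40 bases of the start on the gene's strand. Overlapping matches run together.
Il1b: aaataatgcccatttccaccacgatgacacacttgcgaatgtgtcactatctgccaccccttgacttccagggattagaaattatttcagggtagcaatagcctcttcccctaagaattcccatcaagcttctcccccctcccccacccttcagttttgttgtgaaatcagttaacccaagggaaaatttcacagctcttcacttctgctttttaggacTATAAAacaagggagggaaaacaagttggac
Cxcl1: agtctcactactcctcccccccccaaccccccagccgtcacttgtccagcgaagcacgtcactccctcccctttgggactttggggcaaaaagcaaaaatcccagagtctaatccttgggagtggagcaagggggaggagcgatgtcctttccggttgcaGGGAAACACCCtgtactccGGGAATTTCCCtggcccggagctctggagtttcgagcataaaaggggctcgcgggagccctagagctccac
Cxcl2: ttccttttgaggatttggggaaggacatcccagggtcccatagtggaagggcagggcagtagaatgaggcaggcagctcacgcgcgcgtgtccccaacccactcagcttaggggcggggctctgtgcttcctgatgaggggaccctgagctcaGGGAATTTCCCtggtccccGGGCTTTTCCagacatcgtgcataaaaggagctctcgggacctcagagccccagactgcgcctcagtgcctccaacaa
Cxcl10: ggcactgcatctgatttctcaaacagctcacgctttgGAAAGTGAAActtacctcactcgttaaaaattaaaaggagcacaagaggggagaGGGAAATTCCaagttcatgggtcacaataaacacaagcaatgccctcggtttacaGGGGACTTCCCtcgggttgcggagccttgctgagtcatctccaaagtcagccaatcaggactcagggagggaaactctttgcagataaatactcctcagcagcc

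Cxcl1 and Cxcl2 share the run GGGAATTTCC, which begins 71 bases before the start of Cxcl1 and 97 bases before that of Cxcl2. Cxcl10 holds GGGAAATTCC 159 bases and GGGGACTTCC 104 bases before its start, and alone of the 4 it holds the interferon pattern, as GAAAGTGAAA at 213 bases. Il1b holds neither of the 2 patterns in this window and has TATAAA 31 bases before its start. The table had promoters for 334 of the 418 genes that rose and 318 of the 391 that fell, with 446 promoters in each set, since a gene may have several. The kB-like pattern occurred in 58.5% of the promoters of genes that rose and 61% of those of genes that fell, against 61% over all fitted genes and 45.8% over the whole table. The interferon pattern occurred in 5.61% of promoters of genes that rose and 1.79% of those of genes that fell, against 2.79% over all fitted genes and 2.98% over the table. A tighter kB-like pattern (GGGA, any 2 bases, TTCC), every match to which also matches the looser one, was tried after these sequences had been seen. It stood in 4.26% of promoters of genes that rose and 1.35% of those of genes that fell, against 1.25% over all fitted genes and 1.21% over the table. TATAAA, also added then, stood in 3.14% and 0.673% of these sets, against 1.28% over all fitted genes and 2.31% over the table. These shares are descriptions with no test, and a match is not a binding site.

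Tlr9 itself was not analysed here. Over all fitted genes 11.3% were called. Of 9 tested genes for TLR9 cofactors and endosomal proteases, only Cd14, a co-receptor of several Toll-like receptors, was called. It read 22080 with CpG B, against 8180 and 8828 untreated. Unc93b1, which carries TLR9 to endosomes, read 4492 with CpG B, against 3835 and 4164 untreated. Among other Toll-like receptors Tlr2 rose by 2.90 ± 0.14 and Tlr1 by 2.14 ± 0.14 log2 units (SE, adjusted p = 0.0003 and 0.000695). Tlr2 and Tlr1 encode the partners of a receptor for bacterial triacyl lipopeptides. Tlr4 (-0.73 ± 0.16) and Tlr13 (-0.77 ± 0.16) fell, at adjusted p of 0.0418 and 0.0375, and these calls were lost without either untreated knockout array. Tlr7, the receptor for R848, read 2371 with CpG B, against 2350 and 2623 untreated.

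Among the adaptors and kinases 7 of 21 genes rose and none fell, against 5.85% and 5.47% of all fitted genes. The adaptor Myd88 read 5620 with CpG B, against 3578 and 3826 untreated, a fitted difference of 0.60 ± 0.15 that missed the threshold (adjusted p = 0.0572). Traf1, a TRAF protein induced by NF-kB, rose by 4.16 ± 0.17. Ikbke, an IkB kinase-related kinase that acts towards interferon genes, rose by 2.39 ± 0.14, and Map3k8, the kinase TPL2 that feeds ERK, by 1.79 ± 0.24. Irak3, which encodes the inhibitory family member IRAK-M, read 3763 with CpG B, against 1099 and 1007 untreated, a rise of 1.82 ± 0.15 (adjusted p = 0.0014). Irak2 itself rose by 1.16 ± 0.15. Irak1 and Traf6 differed by -0.19 ± 0.18 and 0.10 ± 0.17 and were not called. Tank and Traf2 were called too, but Tank not without the recovered and Traf2 not without either untreated array. In the MAP kinase cascade only Mapkapk2, the kinase MK2 that acts on mRNAs of cytokines, rose of 13 genes, by 1.61 ± 0.19. As 5.85% of all fitted genes rose, 1 of 13 shows nothing particular to this list.

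NF-kB subunits and their inhibitors rose broadly. Of 10 tested genes 8 were at least 2-fold higher, against 4.64% of all genes, and the same 8 rose, also when either untreated knockout array was left out. The list median was 2.58, or 2.29 with genes undetected untreated set at their bounds. Nfkbia, which encodes the inhibitor IkB alpha, read 7802 with CpG B, against 994.35 and 848.25 untreated, a rise of 3.06 ± 0.16 (adjusted p = 0.000352). Nfkbiz, the nuclear co-factor IkB zeta needed for Il6, rose by 4.10 ± 0.41. Its untreated arrays differed, at 360 and 199.2, but lay far below the 4862 read with CpG B. Nfkb2 rose by 2.73 ± 0.21, and Relb and Bcl3 were at least 5.31-fold and 7.95-fold higher. Rela, the ubiquitous subunit, differed by 0.51 ± 0.16 and was not called, nor was Nfkbid (0.40 ± 0.21).

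Of 23 cytokine genes on the platform 15 were tested, and those detected on neither knockout array were left out. Of the 15, 12 were at least 2-fold higher, against 4.64% of all genes, and none was lower. Several of the 12, such as Il1b and Il6, were detected only with CpG B and so were tested only through the array where they were high. In the fit 11 of 16 rose, against 5.85%. The list median was 1.76, or 1.06 at the bounds. Tnf read 11543 with CpG B, against 504 and 592.2 untreated, and rose by 4.36 ± 0.16 (adjusted p = 0.000204). Il1rn, the soluble antagonist of interleukin-1, rose by 2.44 ± 0.17 to 1733, against 275.9 and 340.9 untreated. Ebi3, a subunit shared by several cytokines of the interleukin-12 family, rose by 2.14 ± 0.15. Il6, Il10 and Il1a were not detected untreated and were at least 4.44-fold, 3.53-fold and 2.97-fold higher with CpG B. Il15 and Il18 were not called. Lta and Osm were called, but Lta not without either untreated array and Osm not without the recovered one. Csf2 and Ifnb1 were not detected on either knockout array, and Il12b was not analysed here.

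Among chemokines 10 of 14 tested genes were at least 2-fold higher, against 4.64% of all genes. The platform held 20, and Cxcl1, Cxcl2 and Cxcl10 were tested only through the CpG B array, where they were high. In the fit 12 of 15 rose, against 5.85%, and 9 of the 12 were called without each untreated knockout array in turn. Cxcl9, one of the 12, was not detected on either knockout array. Ccl5, which draws T cells and monocytes, read 6252 with CpG B, against 93.9 and 105.5 untreated, a rise of 5.76 ± 0.15 (adjusted p = 9.96e-05). Ccl3 and Ccl4, the macrophage inflammatory proteins, rose by 4.14 ± 0.25 and 1.98 ± 0.17. Ccl3 read 35942 with CpG B, against 1661 and 2464 untreated, and Ccl4 read 30071, against 6968 and 8336 untreated. Ccl4 was thus already high in untreated cells. The neutrophil attractants whose promoters are shown above had the largest single-array differences of the list: Cxcl1 was at least 78.6-fold and Cxcl2 at least 51-fold higher. Cxcl10, which attracts T cells through CXCR3, read 1887 with CpG B, against 48.5 and 53.1 untreated, and was at least 19-fold higher. The monocyte chemokines Ccl2, Ccl7 and Ccl12, already at 15748 in the case of Ccl2 untreated, were not called, with fitted differences of 0.80 ± 0.25, 0.68 ± 0.33 and 0.89 ± 0.33. Ccl7 read 38154 with CpG B, against 28970 and 19522 untreated. The highest intensity before normalisation on the CpG B array was 35079, so Ccl7, Ccl3 and Ccl4 lay near the top of its range. Whether their differences are understated there was not tested.

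Receptors for these mediators were mixed. Of 18 tested receptor genes 6 rose and 1 fell, against 5.85% and 5.47% of all fitted genes. Fas, the death receptor, rose by 3.65 ± 0.14, the decoy chemokine receptor gene Ccrl2 by 2.74 ± 0.19, and Tnfrsf1b, the TNF receptor p75, was at least 5.33-fold higher. Il6ra fell by 0.83 (SE 0.14), a call lost without either untreated array. Cxcr4 read 533 with CpG B, against 1704 and 2092 untreated, yet was not called (-1.79 ± 0.52, adjusted p = 0.0894).

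Many genes listed as feedback inhibitors rose alongside the targets of the pathway. Of 18 tested feedback genes 10 were at least 2-fold higher and 3 at least 2-fold lower, against 4.64% and 3.37% of all genes. In the fit 11 of 19 rose and 1 fell, against 5.85% and 5.47%. The risen genes included Pde4b and Marcksl1, by 3.58 and 2.84, whose action as inhibitors of this pathway was not tested. Socs3, the inhibitor of JAK kinases, read 7741 with CpG B, against 119.4 and 69.8 untreated, a rise of 6.17 ± 0.39 (adjusted p = 0.000579). Zc3h12a, the RNase regnase-1 that degrades cytokine mRNAs, rose by 2.97 ± 0.17. Tnfaip3 (A20, a ubiquitin editor) and its partner Tnip1 rose by 2.65 ± 0.20 and 2.67 ± 0.31. The phosphatases of MAP kinases were mixed: Dusp2 was at least 4.13-fold higher and Dusp16 rose by 1.59 ± 0.14. Dusp6 differed by -0.97 ± 0.24 and was not called. Rgs1, a brake on G-protein signalling, fell by 1.73 (SE 0.22) to 1273, against 5039 and 3616 untreated.

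Immediate early genes depended on which untreated array they were set against. Egr1, an early growth response factor, read 231 with CpG B, against 926.5 on the deposited and 178.3 on the recovered untreated array. Its single-array difference was -1.96, its difference from the recovered array was 0.35, and it was not called (adjusted p = 0.79). Fos read 1868 with CpG B, against 3270 and 1393 untreated, and Dusp1 3209 against 4382 and 1729, so in both genes the CpG B value lay between the untreated values. Klf2 and Zfp36l1 were 2-fold lower on the deposited arrays and were not called. Junb (1.41 ± 0.22) rose and Klf4 (-1.58 ± 0.24) fell, at adjusted p of 0.0145 and 0.0115, and both calls held without either untreated array. In that list of 11 genes 3 rose, against 5.85% of all fitted genes. Of these 3, 1 was left without the deposited and 1 without the recovered array.

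Interferon-stimulated genes, which encode antiviral effectors, were among the responders. Of 27 tested, 15 were at least 2-fold higher, against 4.64% of all genes, and none lower. In the fit 19 of 28 rose, against 5.85%. Of these 19, 14 kept their call without the recovered untreated array and 16 without the deposited one. The list median was 1.44, or 0.97 at the bounds. Rsad2, the antiviral enzyme viperin, read 7374 with CpG B, against 884 and 761 untreated, and rose by 3.14 ± 0.17 (adjusted p = 0.000372). The guanylate-binding proteins Gbp3 and Gbp2 rose by 3.25 ± 0.20 and 2.96 ± 0.15. Mx2 rose by 3.16 ± 0.26, Ifit3 by 2.52 ± 0.21 and Cmpk2 by 2.34 ± 0.22. Not all members took part, since Oasl2 (0.48 ± 0.22), Irgm1 (0.29 ± 0.17) and Eif2ak2 (0.51 ± 0.14) were not called. In the list of interferon regulatory factors and STATs only Irf1 rose of 12 (1.26 ± 0.15). Stat2 was 2.34-fold higher on the single arrays but was not called (1.09 ± 0.30, adjusted p = 0.0739). Irf7 (0.30 ± 0.34), Irf3 (-0.01 ± 0.19) and Irf5 (-0.11 ± 0.14) were not called either. With 5.85% of all fitted genes risen, 1 of 12 shows nothing particular to these factors.

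Molecules by which macrophages contact T cells and vessel walls rose as well: 8 of 13 tested genes were at least 2-fold higher and the same number rose, also without either untreated array. The shares over all genes were 4.64% and 5.85%. The list median was 2.04, or 1.40 at the bounds. Icam1, an adhesion ligand of leukocyte integrins, read 8320 with CpG B, against 1017 and 958 untreated, a rise of 3.05 ± 0.14 (adjusted p = 0.00024). Cd69 and Cd40 rose by 4.15 ± 0.46 and 3.05 ± 0.25, and Cd274, the checkpoint ligand PD-L1, by 2.63 ± 0.24. The costimulatory genes Cd80 and Cd86 were not called (0.37 ± 0.17 and 0.28 ± 0.14). In antigen presentation 0 of 15 genes were 2-fold apart and 0 were called, against 8% and 11.3% of all genes. In that list 3 genes were 2-fold higher when set against the recovered array. H2-Eb1, a class II chain, read 2778 with CpG B, against 1695 and 1136 untreated.

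Effector enzymes gave wide differences in both directions. Of 21 tested, 14 were at least 2-fold higher and 2 at least 2-fold lower, against 4.64% and 3.37% of all genes. In the fit 16 of 22 rose, against 5.85%. Of these 16, Cfb was not detected on either knockout array. The list median was 2.11, or 1.29 at the bounds. Ptgs2, the inducible cyclooxygenase, read 469 with CpG B and was near 0 on both untreated arrays, and was at least 4.75-fold higher. Ptges, which acts after it in the synthesis of prostaglandin E2, was at least 3.15-fold higher. Hpgd, which breaks prostaglandins down, ran the other way: it read 18.9 with CpG B, against 349.1 and 348.6 untreated, and was at least 3.84-fold lower (adjusted p = 0.000213). Among proteases the membrane metalloprotease gene Mmp14 was at least 15.8-fold higher. Plau, the plasminogen activator urokinase, fell by 1.82 (SE 0.16) to 4004, against 14721 and 13684 untreated. Nos2, the inducible nitric oxide synthase, was at least 1.92-fold higher, a call lost without either untreated array. Arg1, the arginase of alternatively activated macrophages, was not called (-0.57 ± 0.35).

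Survival and stress genes were split. Bcl2a1d, an anti-apoptotic NF-kB target with near-identical paralogs that a probe may not separate, rose by 2.75 ± 0.14, and Birc3 was at least 4.39-fold higher. Bcl2 fell by 1.04 (SE 0.19), a call that needed the deposited untreated array, and none of 3 other detected Bcl2 probes was 2-fold lower. The inflammatory caspase gene Casp4 rose by 3.14 ± 0.19, to 2502 with CpG B, against 265 and 274 untreated. Of 15 tested oxidative stress and metal genes 5 were at least 2-fold higher, against 4.64% of all genes. In the fit 6 of 16 rose, against 5.85%, with 4 risen without the deposited and 3 without the recovered untreated array. Slc7a11, the cystine importer, was at least 16.2-fold higher, and Sod2, the mitochondrial superoxide dismutase, rose by 2.03 ± 0.15. Hmox1 was not called (0.29 ± 0.16). Of 16 tested glycolysis and hypoxia genes none was 2-fold apart and 2 were called, against 8% and 11.3% of all genes. The 2 called, Slc2a1 (the glucose transporter GLUT1) and Vhl, were lost without either untreated array. Among sterol genes Idi1 and Nr1h3 rose and Abcg1 fell, by 1.13 ± 0.15, 1.49 ± 0.19 and -1.30 ± 0.25, and the call of Abcg1 was lost without either array. Of 15 heat shock and unfolded protein genes 2 rose, against 5.85% of all fitted genes. Herpud1, which acts in disposal of misfolded proteins, rose by 1.33 ± 0.16 with a call that held without either array. Hspa1a was at least 1.73-fold higher, a call lost without either untreated array.

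**Figure D2:**
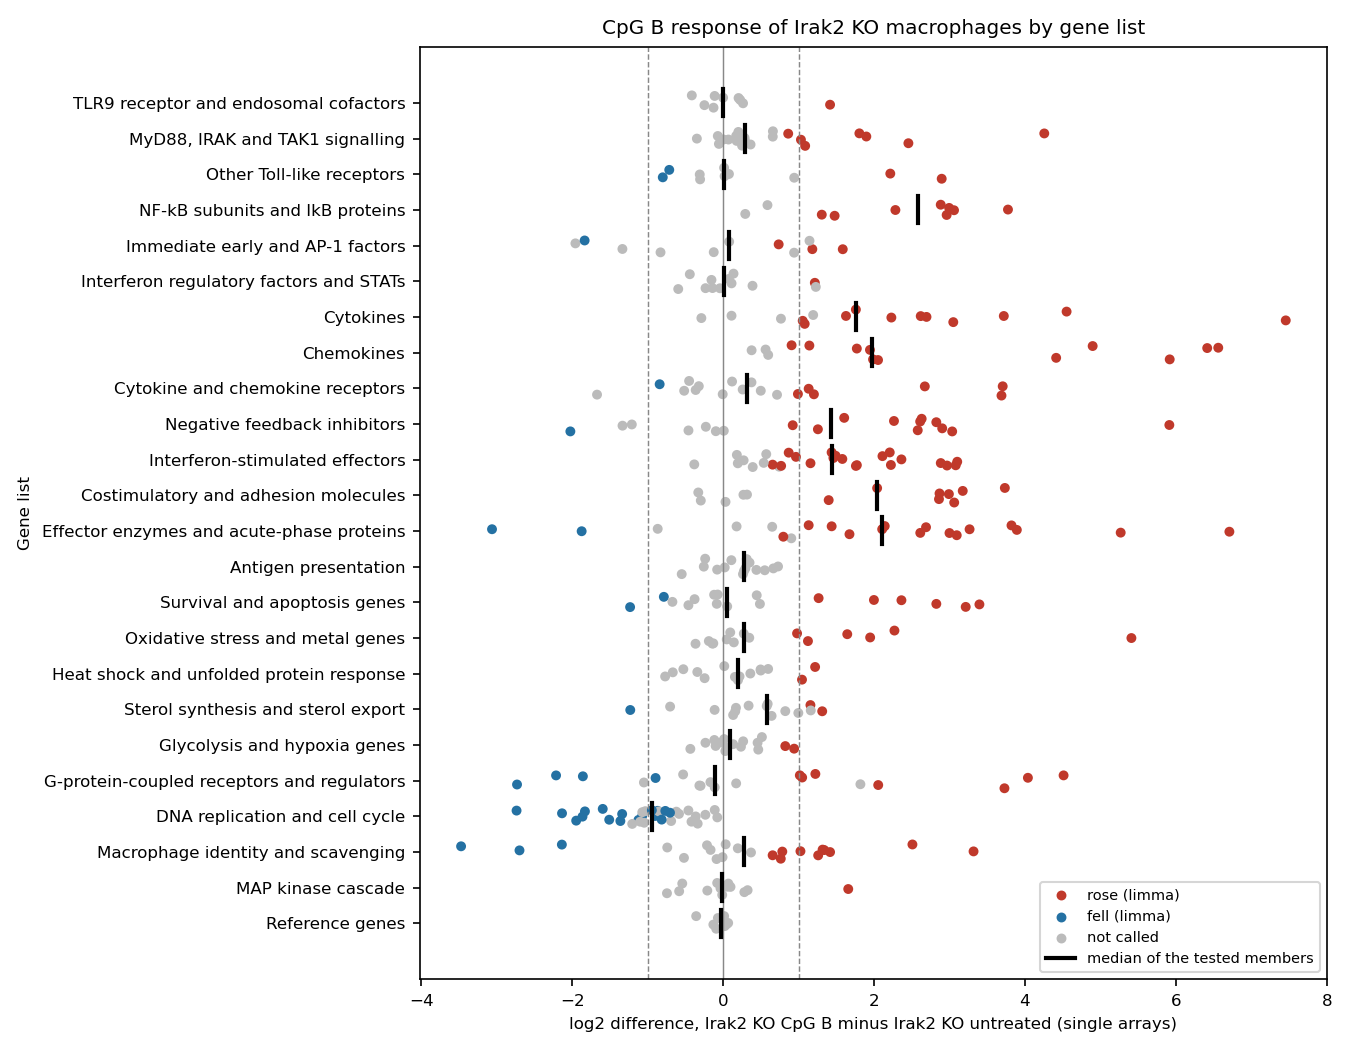
Single-array log2 differences, Irak2 KO CpG B minus Irak2 KO untreated, of the tested members of 24 gene lists. Points are genes, coloured by their limma call, black bars are list medians, and dashed lines mark 2-fold. NF-kB genes, chemokines, costimulatory molecules and effector enzymes lie mostly to the right, with medians between 1.97 and 2.58, or between 1.29 and 2.29 with undetected genes at their bounds, and replication genes lie to the left, with a median of -0.94.

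Surface receptors of macrophages went both ways. Of 19 tested G-protein-coupled receptors 8 were at least 2-fold higher and 4 at least 2-fold lower, against 4.64% and 3.37% of all genes. The list median was -0.11. Hcar2, the niacin and butyrate receptor, read 3108 with CpG B, against 127.3 and 102.7 untreated, a rise of 4.58 ± 0.25 (adjusted p = 0.000372). Gpr84, a receptor for medium-chain fatty acids, and Fpr2, a formyl peptide receptor, rose by 4.16 ± 0.42 and 3.91 ± 0.40. Gpr183, the oxysterol receptor EBI2, fell by 2.62 (SE 0.15) to 186.4, against 1290 and 1163 untreated. P2ry13, a receptor for ADP, was at least 1.87-fold lower. Against the recovered untreated array 5 receptors were 2-fold higher in place of 8. In the fit 7 of 20 rose and 4 fell, against 5.85% and 5.47% of all fitted genes. Without either single untreated array 5 rose and 2 fell.

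In the list of macrophage identity and uptake 10 of 22 genes rose and 3 fell, against 5.85% and 5.47% of all fitted genes. Without the deposited untreated array 6 risen genes were left, and 6 without the recovered one. This list, like the others, was chosen with earlier results known, and the fallen Slco2b1 and Rasgrp3 are among the largest decreases of this comparison. The counts of risen and fallen genes are therefore no result about such genes. Clec4e, the receptor Mincle for mycobacterial glycolipids, read 11086 with CpG B, against 1136 and 1212 untreated, a rise of 3.22 ± 0.14. The scavenger receptor gene Marco was at least 4.06-fold higher, and the factor gene Cebpb rose by 1.30 ± 0.15. Mertk, a receptor for the uptake of apoptotic cells, was at least 2.11-fold lower. Slco2b1, an organic anion transporter, read 73.9 with CpG B, against 962.7 and 801.9 untreated, and was at least 10.4-fold lower (adjusted p = 0.000372). Rasgrp3, an exchange factor for Ras that dampens Toll-like receptor signals in mouse macrophages, fell by 2.70 (SE 0.14) to 228, against 1529 and 1621 untreated. Lyz2 and Mrc1 were not called (0.11 ± 0.16 and -0.13 ± 0.28).

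Genes of DNA replication and the G1 to S transition were lower with CpG B. All 33 tested members had negative differences, with a median of -0.94, or -0.90 at the bounds, and 16 were at least 2-fold lower, against 3.37% of all genes. In the fit 17 fell, against 5.47% of all fitted genes. Ung, the uracil-DNA glycosylase that follows replication forks, read 130.7 with CpG B, against 940.9 and 735.7 untreated, a difference of -2.53 log2 units (SE 0.22, adjusted p = 0.00174). E2f2 fell by 1.81 (SE 0.19) and Ccnd1, the G1 cyclin D1, by 1.55 (SE 0.18) to 5910, against 18078 and 16693 untreated. The licensing factors Cdc6 and Cdt1 fell by 1.89 (SE 0.36) and 1.29 (SE 0.18), and Mcm2 to Mcm5 of the replicative helicase by 0.84 to 1.03. The mitotic genes Plk1, Top2a, Cdk1, Aurka and Birc5 lay closer to 0, between -0.37 ± 0.17 and -0.12 ± 0.14, and were not called. This group leaned on the deposited untreated array: set against the recovered one, 8 members were 2-fold lower in place of 16, and 4 were called without the deposited and 7 without the recovered array. Ung, E2f2 and Ccnd1 were called in each case, and Cdc6 in neither.

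**Figure D3:**
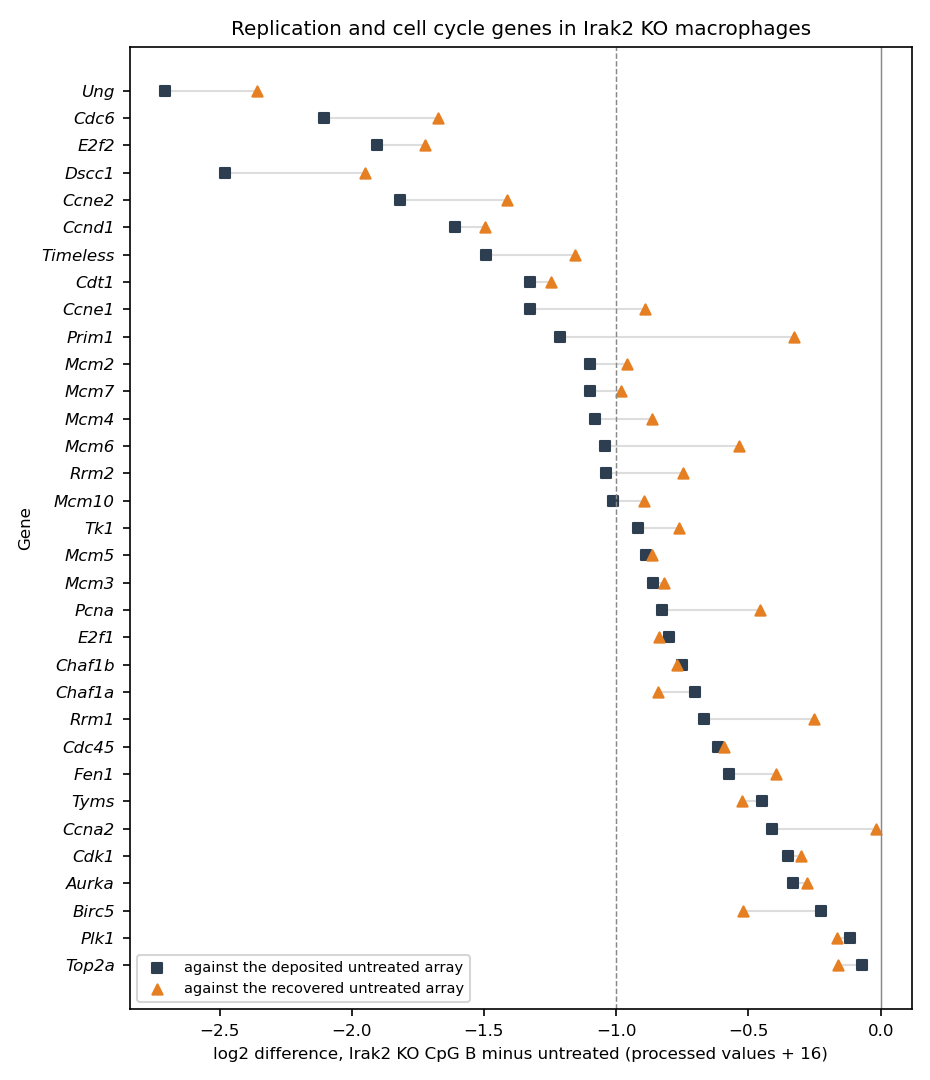
Log2 differences, Irak2 KO CpG B minus Irak2 KO untreated, of the 33 tested replication and cell cycle genes on the processed scale, against the deposited (squares) and the recovered (triangles) untreated array. The dashed line marks 2-fold. From Ung to Cdt1 genes lie left of it against both arrays, and several others, such as Mcm6 and Prim1, do so against the deposited array alone.

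Genes outside the lists completed the extremes. Il4i1, an amino acid oxidase that limits T cells, and Asb2, a ubiquitin ligase subunit, were not detected untreated and were at least 9.56-fold and 6.90-fold higher. Lbh, a developmental transcription cofactor, fell by 2.54 (SE 0.17) and the BTB protein gene Klhl6 by 2.28 (SE 0.14). Thbd, the thrombin receptor thrombomodulin, read 109 with CpG B, against 577.4 and 409.6 untreated, and fell by 2.01 (SE 0.25). Dyrk3, a kinase that dissolves stress granules, fell by 2.08 (SE 0.16) to 85.1, against 423.2 and 399.6 untreated. Pald1, Enc1 and Sbk1 were at least 4.18-fold, 2.28-fold and 2.70-fold lower, and the call of Sbk1 needed the deposited untreated array. Genes that rose had a median untreated normalised intensity of 245.8, against 580.3 for genes that fell and 590.4 for all fitted genes. The untreated level is part of the difference that defines both sets, so this order is partly fixed by the selection. In genomic length the medians were 19.6 kb, 28.3 kb and 20.7 kb. Where one of the 549 genes had a further detected probe, which was so for 128, that probe had the same sign in 126 and was 2-fold apart too in 87.

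How the knockout's response stood to that of WT cells was asked next, with no array in common between both. In WT cells CpG B gave 363 genes of 6925 at 2-fold (5.24%), 252 higher (3.64%) and 111 lower (1.6%). Of the 318 genes 2-fold higher in Irak2 KO, 220 were so in WT too, which is 69.2% of the knockout list and 87.3% of the WT list. Of the 231 lower genes 78 were lower in WT, or 33.8% of the knockout list and 70.3% of the WT list. None went 2-fold in opposite directions, and 545 of the 549 had the same sign in WT. The others were Abcc1, Bst2, Nrap and Gramd4, with WT differences between -0.69 and 0.02. How many of all 6860 genes shared a sign was not counted. Across the 6860 genes, which are not independent, both responses had r = 0.858. In the fit 809 genes were called in Irak2 KO and 378 (5.29%) in WT, where 265 rose (3.71%) and 113 fell (1.58%).

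**Figure D4:**
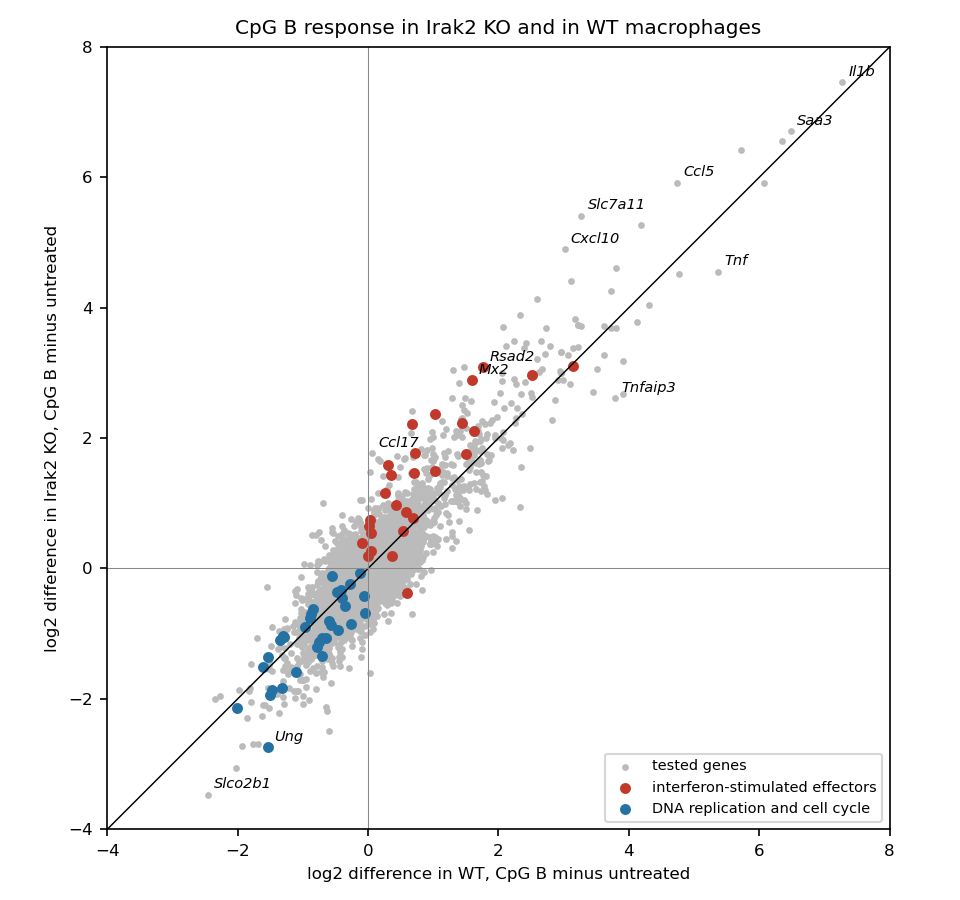
Single-array log2 differences with CpG B in Irak2 KO (vertical) against WT (horizontal) for 6860 genes. The line marks equal differences, red points are interferon-stimulated effectors and blue points replication and cell cycle genes. Interferon-stimulated effectors lie mostly above the line, with a median fitted difference between both responses of 0.57, and no such difference was called.

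No difference between both responses passed the test. Among 7149 genes 0 were called by limma (0%), 305 had an unadjusted p under 0.05, and the smallest adjusted p was 0.0762, for Ccl17. With trend and robust moderation 6 were called. For Ccl17 this contrast rests on signals near background. It read 99.15 normalised units in Irak2 KO with CpG B, where the lowest detected probe had 93.6. In WT it read 31.06 with CpG B and 29.74 untreated, with a fitted response of 0. The median standard error of this contrast was 0.23 log2 units. Among interferon-stimulated effectors 15 genes were 2-fold higher in Irak2 KO and 9 in WT, and 19 rose in Irak2 KO and 7 in WT, with 0 differences called. Over all genes 4.64% were 2-fold higher in Irak2 KO and 3.64% in WT, and 5.85% rose in Irak2 KO and 3.71% in WT. Rsad2 read 7597 and 896.6 normalised units in Irak2 KO with and without CpG B, against 8063 and 2375 in WT, so the level with CpG B was close in both genotypes while the untreated level was lower in Irak2 KO. Its response was larger by 1.49 ± 0.24 in Irak2 KO, at an adjusted p of 0.614. Cxcl10 and Ccl5 responses were larger by 1.65 ± 0.29 and 1.06 ± 0.21, and those of Tnf, Tnfaip3 and Ccrl2 differed by -0.94 ± 0.22, -0.88 ± 0.29 and -0.95 ± 0.27, none of them called. Il1b differed by -0.35 ± 0.47 and Nfkbia by 0.18 ± 0.23. Among replication genes 16 were 2-fold lower in Irak2 KO and 11 in WT, against 3.37% and 1.6% of all genes, and 17 fell in Irak2 KO and 7 in WT, against 5.47% and 1.58% of all genes. More genes of all kinds were thus called lower in Irak2 KO, and the counts show nothing particular to replication genes.

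In Irak2 KO cells the arrays labelled CpG B and R848 were close to each other. Directly compared, 15 of 6749 genes were 2-fold apart (0.222%), 5 higher (0.0741%) and 10 lower (0.148%) with CpG B, while in WT cells 435 of 6899 were (6.31%). Over the 7149 fitted genes the SD of the log2 difference between the knockout CpG B and R848 arrays was 0.23, against 0.25 between both untreated knockout arrays, and 0.55 between CpG B and R848 in WT. Counted at 2-fold on the same processed values, the knockout CpG B and R848 arrays differed in 23 genes (0.322%) and both untreated knockout arrays in 21 (0.294%). In the fit 0 of 7149 genes differed between them (0%), with 229 at an unadjusted p under 0.05, a smallest adjusted p of 0.0512, and 6 calls under trend and robust moderation. The median standard error was 0.19 log2 units, so small differences could not be seen.

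The few genes that did stand 2-fold apart, selected by that difference and given without a test, included 5 of the effector enzyme list and 2 cytokines. Serpinb2, an inhibitor of plasminogen activators, read 247.5 normalised units with CpG B and 957.4 with R848. Il1a read 299.7 and 772.2, Il1rn 1762 and 3983, and Hdc, which makes histamine, 100.6 and 308.6 in the same order. The repressed genes Plau and Rasgrp3 were higher with CpG B, at 4153 and 238.8 units, against 1751 and 116.4 with R848. The other genes that were higher with CpG B were Gadd45g, Gna15 and Tmem53. Tnf, Nfkbia and the other cytokine and NF-kB genes were within 2-fold, except Il1a and Il1rn.

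**Figure D5:**
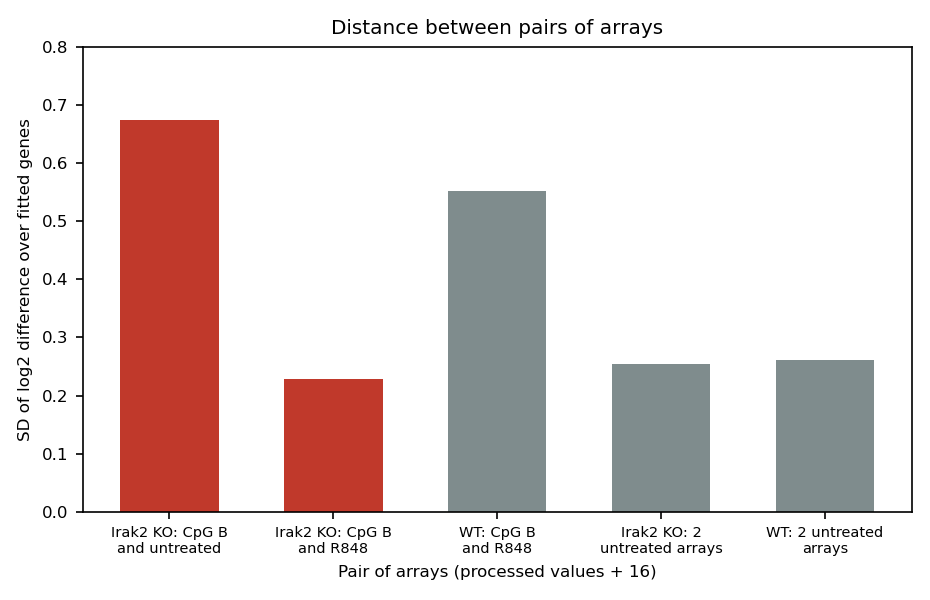
SD of the log2 difference over the 7149 fitted genes for 5 pairs of arrays, on processed values plus 16, with no error bar since each pair is single. The Irak2 KO CpG B and untreated arrays differ most at 0.67, and the Irak2 KO CpG B and R848 arrays, at 0.23, lie below the pair of untreated Irak2 KO arrays at 0.25.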

How the data were processed

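RNA of bone marrow-derived macrophages was measured on 6 Illumina bead arrays, 1 per group of genotype and agent, and groups were taken from the labels. The authors deposited an intensity that was not normalised and a detection p-value per probe and array, exported by BeadStudio according to the submitters' processing notes, which name no version used here. Between 33.4% and 34.4% of the intensities of an array were negative, which a background subtraction produces. They also deposited processed intensity values on a linear scale. For stimulated samples 99.7% to 99.8% of these lay within 0.5 units of the quantile-normalised array, but for untreated samples 6.1% (WT) and 6.27% (Irak2 KO). Read as a mean of 2 arrays, the untreated columns gave a second array of which 99.7% of sorted values lay within 0.5 units of the common distribution, against 66.6% and 67.2% for a mean of 3. The recovered array is the column times 2 minus the deposited array. The number of arrays limits the precision.

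Computation used R 4.3.3 and limma 3.58.1. The function neqc (normexp on detection p-values, offset 16, quantile normalisation, log2) gave single-array differences, counted at an absolute log2 value of 1. The limma fit of 6 group means on 8 arrays used log2 of the processed values floored at 0 plus 16, over the 7149 genes detected on at least 1 of 6 arrays. Of 25697 probes 23978 named 1 gene in the platform annotation and 1719 none, and symbols were updated through RefSeq GRCm38.p6 identifiers. The brightest probe stood for a gene. Where a probe was undetected on the dimmer array, an "at least" fold uses the lowest signal of a detected probe there. The fit was tested on simulated data.

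The gene lists and the comparison were chosen with earlier results of these data known. The text names at most 15 genes per direction by size of difference, if processed values shared its sign, at most 4 per list and direction by size, any further list member, and, for contrasts without calls, genes chosen after their values were seen. Alternatives changed the background correction, scaling, offset, detection filter, probe choice, moderation and arrays used. No array column was left unmapped, and Irak2 KO R848 and WT arrays served only for comparison.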

Additional observations from a re-analysis of the deposited data

Results flagged for a closer look

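The list of G-protein-coupled receptors and regulators had a median log2 difference of -0.11 in Irak2 KO cells and 0.31 in WT cells with CpG B, so its medians point in opposite directions. This difference was not tested, both medians are small beside those of the single members (-2.73 to 4.51 in Irak2 KO), and 0 members were called for the difference of responses.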

How the results depend on the processing

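The count of genes at 2-fold in Irak2 KO with CpG B, 549, ranged from 381 (detected on both arrays) to 599 (no normexp correction) under other background corrections, scalings, filters and probe choices, and was 535 against the recovered untreated array and 432 against both untreated arrays, 2 settings chosen after seeing the data. The limma count, 809, was 952 over genes detected on both deposited untreated arrays, 318 with no detection filter and 1219 with trend and robust moderation. Leaving out single untreated arrays gave 398 to 615, with 424 without the deposited and 398 without the recovered knockout array. Such fits have 1 residual degree of freedom less. For the difference of responses the count was 0, but 256 with no detection filter and 6 with trend and robust moderation, and leaving out single untreated arrays gave 0 to 0. For CpG B against R848 in Irak2 KO it was 0, but 318 with no detection filter and 6 with trend and robust moderation, and again 0 to 0. The cause of these changes was not tested. Egr1 changed sign, to 0.35, against the recovered array, and its fitted difference ranged from -1.93 to 0.35 when single untreated arrays were left out. Over the named genes, 105 of the recomputed fitted responses lost their call and 19 gained one. No paired analysis was possible because the labels carry no replicate numbers. With 1 array per stimulated group and genes near background, folds of undetected genes are bounds only.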
